A study of Mus musculus with 51 samples.

Results

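The 38 genes described here encode core proteins of DNA replication: the loaders Orc1 to Orc6, Cdc6 and Cdt1, the licensing inhibitor Gmnn, 12 helicase genes (Mcm2 to Mcm7, Cdc45, Gins1 to Gins4 and Mcm10), 5 genes of DNA polymerases and primase (Pola1, Pola2, Prim1, Pold1, Pole), the clamp Pcna with its loaders Rfc1 to Rfc5, Rpa1 and Rpa2, which bind single-stranded DNA, Fen1 and Lig1, which finish Okazaki fragments, and Rrm1 and Rrm2, the subunits of ribonucleotide reductase. They were taken by gene symbol from the 40077 genes of the deposited mouse tables, with no cutoff on measured values. The list was chosen with earlier results of these data known. All 38 passed the filter on low counts in each of the 6 experiments, and the lowest count of any of them in any library was 23, for Gins1.

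The 51 bulk RNA-seq libraries came from 2 mouse lines, Myc-CaP (prostate cancer) and B16-BL6 (melanoma). The study asked how UBA1, the enzyme that activates ubiquitin, acts in tumors, and changed it by genome editing (sgUba1), by overexpression (OE) and with TAK-243, a small-molecule inhibitor of UBA1. Of these libraries, 35 were subcutaneous tumors, Myc-CaP in male FVB mice and B16-BL6 in female C57BL/6 mice, 6 to 8 weeks old. The other 16 were cultured Myc-CaP cells, told from the tumors by their titles, since the tissue label reads prostate tumor for both.

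The groups were as follows. B16-BL6 tumors carried a control guide (sgNC, n = 3) or sgUba1 (n = 4), and Myc-CaP tumors carried sgNC (n = 3) or sgUba1 (n = 7). The sgUba1 sublines were grown from single cells after puromycin selection, and the labels do not say which guide or subline each library holds. Another tumor experiment compared blasticidin-selected Myc-CaP cells with lentiviral Uba1 cDNA (OE, n = 4) and with empty vector (EV, n = 3). The last compared unmodified Myc-CaP tumors of mice given TAK-243 intravenously at 25 mg/kg (n = 5) or vehicle (n = 6). Tumors were placed on both flanks, so tumors of a group may share a mouse. Cell groups held 2 libraries each: sgNC and sgUba1 cells with PBS or with IFN-γ at 1 ng/mL for 18 hours, and unmodified cells without treatment, with TAK-243 at 50 nM, with IFN-γ, or with both, also for 18 hours. Nothing in the labels says that the cell libraries came from separate cultures, so their p-values measure only the spread between these libraries, which may be technical.

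A cell replicates its genome in S phase. In G1, ORC, Cdc6 and Cdt1 load the ring-shaped MCM2-7 helicase on origins, geminin (Gmnn) then blocks Cdt1 from loading it again, and Cdc45 and GINS switch the helicase on. DNA polymerase α with primase lays primers, RFC loads the PCNA ring that holds polymerases δ and ε on the template, and ribonucleotide reductase supplies the deoxynucleotides. Many of these genes are transcribed from late G1 by E2F factors, so their RNA is low in resting cells, and Cdt1 and geminin proteins are removed by ubiquitination at set points of the cycle, which RNA does not show.

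Promoter windows are printed here because many of these genes are known E2F targets and E2F factors bind letters like those searched for. RefSeq windows for GRCm38.p6 run from 250 bases before to 50 bases after the transcription start, and 31 of the 38 members have one. The letters TTTGGCGC or TTTCGCGC, on either strand, stood in the windows of 9 of these 31 genes. The 9 were Orc1, Cdt1, Mcm3, Mcm5, Mcm6, Mcm7, Pola1, Rfc3 and Lig1. Of all 27025 genes with a window 0.929% held these letters, and of all 32851 windows 0.813%. The looser TTNGCGC, which includes both, was in 12 of the 31 genes, in 7.24% of all genes with a window and in 6.36% of all windows. Shown are the 4 matched members with the smallest adjusted p in TAK-243-treated cells, and Rrm2, which had no match, with matches in capitals. Lig1 lies at chr7:13278576-13278875, plus strand, with GCGCGAAA 26 bases after the start, in 1 of its 3 windows. Mcm7 lies at chr5:138171834-138172133, minus strand, with TTTCGCGC 16 bases after the start, in 1 of its 2 windows. Mcm5 lies at chr8:75109259-75109558, plus strand, with 2 overlapping matches at 153 and 149 bases before the start. Mcm6 lies at chr1:128359656-128359955, minus strand, with overlapping matches at 110 and 106 bases before the start and another at 47. Rrm2 lies at chr12:24708004-24708303, plus strand. A match is a description of the letters and not a binding site.
Lig1: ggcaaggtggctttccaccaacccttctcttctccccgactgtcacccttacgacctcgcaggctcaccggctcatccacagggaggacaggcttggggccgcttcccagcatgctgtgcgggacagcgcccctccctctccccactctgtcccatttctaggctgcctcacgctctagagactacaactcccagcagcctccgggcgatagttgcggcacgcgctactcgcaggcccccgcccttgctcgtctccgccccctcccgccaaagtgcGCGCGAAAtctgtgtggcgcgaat
Mcm7: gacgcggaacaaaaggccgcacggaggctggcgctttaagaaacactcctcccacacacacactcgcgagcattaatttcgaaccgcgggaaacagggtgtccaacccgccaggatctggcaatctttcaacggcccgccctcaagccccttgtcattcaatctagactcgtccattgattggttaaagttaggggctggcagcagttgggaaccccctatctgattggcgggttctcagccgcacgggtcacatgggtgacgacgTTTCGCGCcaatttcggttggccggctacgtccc
Mcm5: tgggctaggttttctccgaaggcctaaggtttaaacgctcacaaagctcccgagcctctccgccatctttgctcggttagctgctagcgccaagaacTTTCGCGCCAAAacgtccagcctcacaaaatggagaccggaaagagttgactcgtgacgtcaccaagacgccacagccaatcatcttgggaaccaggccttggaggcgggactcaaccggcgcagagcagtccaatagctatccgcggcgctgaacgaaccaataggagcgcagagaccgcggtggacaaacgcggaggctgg
Mcm6: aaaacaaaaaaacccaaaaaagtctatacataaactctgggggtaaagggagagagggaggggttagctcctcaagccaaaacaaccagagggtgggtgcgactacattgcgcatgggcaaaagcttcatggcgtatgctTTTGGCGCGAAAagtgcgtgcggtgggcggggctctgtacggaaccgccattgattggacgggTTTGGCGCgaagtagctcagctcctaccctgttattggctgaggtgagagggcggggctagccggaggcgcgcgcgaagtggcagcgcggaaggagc
Rrm2: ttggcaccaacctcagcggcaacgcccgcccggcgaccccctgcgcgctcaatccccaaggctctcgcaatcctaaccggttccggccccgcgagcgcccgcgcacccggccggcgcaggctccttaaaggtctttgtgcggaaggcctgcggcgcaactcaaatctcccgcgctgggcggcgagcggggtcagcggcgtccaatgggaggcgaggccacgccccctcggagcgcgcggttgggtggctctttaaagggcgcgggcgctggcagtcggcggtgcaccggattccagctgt

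Levels within a library were compared as TPM, which are scaled for gene length. In vehicle tumors Rrm2 was the highest member at 136 ± 30.4 TPM (mean ± SD, n = 6), followed by Mcm7 at 117 ± 15.6 and Pcna at 109 ± 23.4, and these 3 overlapped. The lowest were Gins2 at 4.94 ± 0.783 TPM and Orc1, the origin-binding subunit that is known to cycle, at 6.62 ± 0.945. Untreated cells held higher TPM of the same genes: Rrm2 stood at 442 ± 0.623 TPM (n = 2), Pcna at 317 ± 2.05 and Mcm7 at 277 (269 and 285 in the 2 libraries), with Gins2 again lowest at 9.15 ± 0.209. In B16-BL6 control tumors Pcna led at 201 ± 8.66 TPM (n = 3), Rrm2 overlapped it at 184 ± 22.4, and Mcm2 followed at 117 ± 13.8. Subunits of a complex did not share a level: in untreated cells the highest MCM2-7 mean (Mcm7) was 2.12 times the lowest (Mcm4), and the highest GINS mean (Gins4) was 8.11 times the lowest (Gins2).

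Uba1 itself was checked in every library, in CPM (counts scaled to library size after TMM). B16-BL6 sgUba1 tumors held 208 to 247 CPM against 409.5 to 455 in controls, and OE tumors 631 to 747 CPM against 278 to 310.4 with EV. Of the 7 Myc-CaP tumors labelled sgUba1, tumors 1, 2 and 3 held 197, 202 and 211 CPM, while tumors 4 to 7 held 361 to 383 CPM, above all 3 controls at 319.6 to 337. Results of that comparison are therefore given with and without tumors 4 to 7. These values are RNA levels, and the study reported partial loss of UBA1 protein by immunoblot of cells edited with independent guides. Whether tumors 4 to 7 had less UBA1 protein is not known here. In cells, sgUba1 libraries held 283 and 295 CPM against 526 and 533, and TAK-243 libraries 565 and 594 against 445 and 452. Totals ran from 8652097 to 38032395 expected counts, and other libraries stood apart by the members' own levels. TAK-243 tumors 1 and 4 had low levels of nearly all members, OE tumors 1 and 3 had most members above and below every EV tumor, and Myc-CaP sgUba1 tumor 5 had most below every control, so those comparisons too are given with and without them.

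TAK-243 in culture split the replication genes, and split the subunits of single complexes. Of the 38 members, 24 fell and 7 rose (edgeR quasi-likelihood test, adjusted p under 0.05, where log2FC is the log2 fold change of treated over control), with a median log2FC of −0.32 against 0.03 over all 14551 genes tested. Of all genes, 34.0% fell and 32.3% rose, so most genes changed in these cells. Rrm2, the small regulatory subunit of ribonucleotide reductase, fell most and Orc4, an ATP-binding ORC subunit, rose most.

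Among the loaders, Orc4 stood at 45.1 and 45.8 CPM in control cells and at 88.8 and 97.1 CPM with TAK-243. Both treated libraries were above both controls, and Orc4 rose by 1.03 on the log2 scale (SE 0.06, adjusted p = 1.04e-15). Orc3, a structural subunit of the same hexamer, went from 39.96 and 37.0 CPM to 15.0 and 15.1 CPM. The groups did not overlap and Orc3 fell by 1.36 (SE 0.09, adjusted p = 4.88e-14). Orc5 went from 28.1 and 29.0 to 15.7 and 13.7 CPM, a log2FC of −0.95 (SE 0.10, adjusted p = 6.49e-10). Orc2 fell from 79.2 and 83.1 to 52.2 and 49.7 CPM, a log2FC of −0.67 (adjusted p = 2.12e-11). Orc1 rose by 0.45 (adjusted p = 8.95e-06) and Orc6 did not pass (−0.09, adjusted p = 0.157), so the 6 ORC genes ran from −1.36 to 1.03. Cdt1, which brings MCM2-7 to origins, stood at 99.4 and 102 CPM in controls and at 93.3 and 86.3 CPM with TAK-243. All 4 values lie within a narrow range without overlap, and Cdt1 fell by 0.16 (SE 0.05, adjusted p = 0.00728). Gmnn, its inhibitor, stood at 47.4 and 48.1 against 48.7 and 47.0 CPM. The groups overlapped, with a log2FC of 0.01 (SE 0.07, adjusted p = 0.944), a value that is below 0 when TPM are used or low genes are kept.

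Among the helicase genes, 7 fell and 3 rose. Mcm2, an MCM2-7 subunit, went from 298 and 284 CPM to 238 and 224 CPM, below both controls, a log2FC of −0.33 (SE 0.03, adjusted p = 8.24e-10). Mcm4, Mcm5, Mcm6 and Mcm7 fell by 0.34 to 0.40, while Mcm3, a subunit of the same ring, went from 275 and 261 to 328 and 331 CPM. Its treated libraries were the higher ones, with a log2FC of 0.30 (SE 0.03, adjusted p = 1.86e-09). Mcm10, which joins in firing origins, rose by 0.27 (adjusted p = 3.59e-06) and Cdc45 by 0.16 (adjusted p = 0.0141). Of the GINS genes, Gins1 fell by 0.49 (adjusted p = 5.09e-05) and Gins2 by 0.39 (adjusted p = 0.0015), and Gins3 (−0.01) and Gins4 (0.05) did not pass.

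Among polymerase and clamp genes, Pold1, the catalytic subunit of polymerase δ, went from 54.1 and 56.9 CPM to 29.8 and 26.1 CPM. It did not overlap with controls and fell by 0.98 (SE 0.08, adjusted p = 1.28e-12). Pole, the catalytic subunit of polymerase ε, fell by 0.67 (adjusted p = 2.84e-16) and Pola2 by 0.60 (adjusted p = 3.72e-14), whereas Pola1, the catalytic subunit of polymerase α, rose by 0.19 (adjusted p = 3.39e-05). Rfc5, a small RFC subunit, went from 84.5 and 88.7 CPM to 36.2 and 32.3 CPM. That is a log2FC of −1.33 (SE 0.06, adjusted p = 1.86e-17), without overlap. Rfc2 went from 70.7 and 67.0 to 40.1 and 32.1 CPM, a log2FC of −0.92 (adjusted p = 2.53e-12), while Rfc3 rose by 0.19 (adjusted p = 0.0227). Pcna itself went from 283 and 284 CPM to 252 and 253 CPM. The drop was small beside those of Rfc5 and Rfc2, −0.17 (SE 0.03, adjusted p = 1.99e-05).

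Rrm2 stood at 595 and 589.9 CPM in control cells and at 154 and 157 CPM with TAK-243. Both treated libraries were far below both controls, and Rrm2 fell by 1.93 (SE 0.03, adjusted p = 8.07e-29). Rrm1, the large catalytic subunit, went from 406 and 410.2 to 378 and 366 CPM, a log2FC of −0.13 (SE 0.03, adjusted p = 0.000297). Lig1, the ligase that seals Okazaki fragments, fell by 0.63 (adjusted p = 2.66e-14), and Fen1, the flap nuclease of the same step, did not pass (0.00, adjusted p = 0.938).

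**Figure D1:**
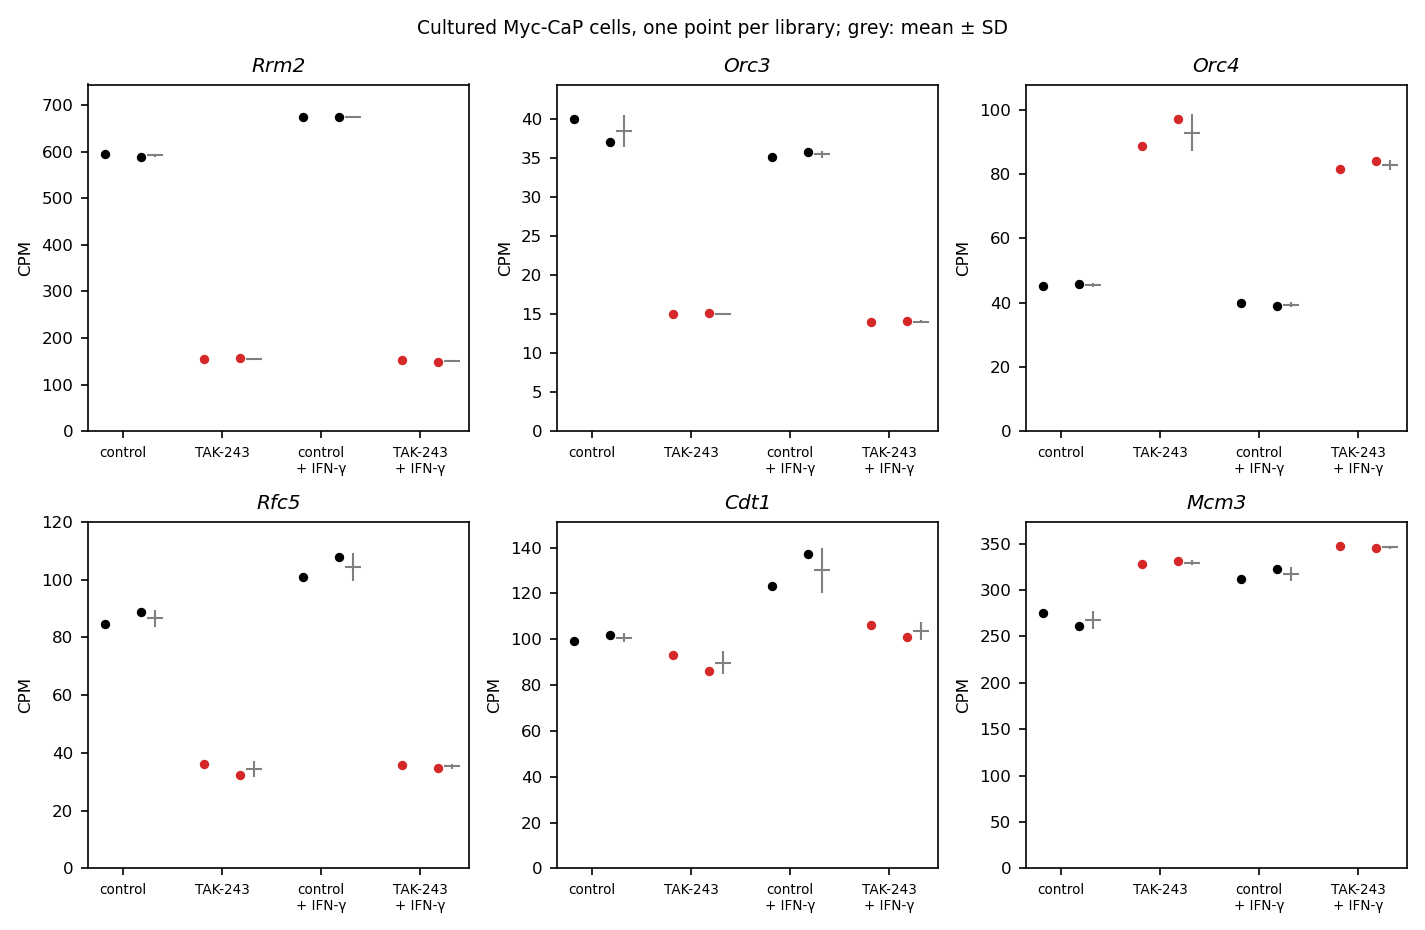
CPM (y axis, from 0) of Rrm2, Orc3, Orc4, Rfc5, Cdt1 and Mcm3 in the 8 libraries of the TAK-243 cell experiment, grouped as control, TAK-243, control with IFN-γ and TAK-243 with IFN-γ; each point is a library and grey marks are the mean ± SD. Rrm2, Orc3 and Rfc5 are lower and Orc4 is higher in every TAK-243 library than in any library without it, while Cdt1 and Mcm3 move by much less.

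With IFN-γ in both arms the pattern of TAK-243 was close to that without it. Of the 38 members 26 fell and 6 rose, against 36.2% and 32.0% of all genes, and the median log2FC was −0.37. By limma on log2(TPM + 1) the same comparison gave 19 lower and 9 higher, where the median of all genes was 0.12 against 0.02 by edgeR. Rrm2 went from 676 and 674 CPM to 152 and 149 CPM, a log2FC of −2.16 (SE 0.03, adjusted p = 3.97e-30). It was again lower in both TAK-243 libraries than in any other. Rfc5 fell by 1.57 (adjusted p = 1.54e-19), Orc3 by 1.34 (9.54e-14), Pold1 by 1.11 (2.39e-14), Rfc2 by 1.11 (9.11e-15), Orc5 by 1.10 (3.25e-11) and Pole by 0.76 (1.21e-17), and Orc4 rose by 1.07 (8.25e-16), the values in parentheses being adjusted p. Cdt1 fell by 0.33 (6.42e-07), Mcm2 by 0.46 (3.24e-13) and Pcna by 0.23 (9.12e-08), and Gmnn did not pass (−0.06, adjusted p = 0.491). Across the 38 genes the log2FC with and without IFN-γ had a Pearson's r of 0.98 and a Spearman's rho of 0.97. The 2 comparisons share no library but come from the same experiment, and genes are not independent replicates. Calls were the same for 23 members that fell and 6 that rose. The same joint count was not made over all genes, of which 66.3% were called without IFN-γ and 68.2% with it.

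Other lists moved in these cells too. Of 32 further replication genes 22 fell and 4 rose (median −0.29), of 12 nucleotide supply genes 8 fell and 2 rose, and of 12 tested genes of E2F factors and pocket proteins 8 fell and 1 rose. Rbl2 and Rbl1, pocket proteins that hold E2F targets off, fell by 1.996 and 1.39. Of 11 tested p53 targets 8 rose and 3 fell (median 0.99), among them Cdkn1a, the inhibitor of cyclin-dependent kinases, which rose by 2.16 (adjusted p = 2.5e-19). Of 20 mitosis genes 10 rose and 6 fell. The summed level of 6 Myc-CaP line markers was 4896 to 4924 CPM in control cells and 2875 to 2896 CPM with TAK-243, and the part of such shifts in the values of the members was not tested. Among members with a promoter window, the letters TTTGGCGC or TTTCGCGC were in 4 of 7 that rose, 5 of 19 that fell and 0 of 5 that did not pass. These sets are small, the same split was not made over all genes, and a link between the letters and the direction was not tested.

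**Figure D2:**
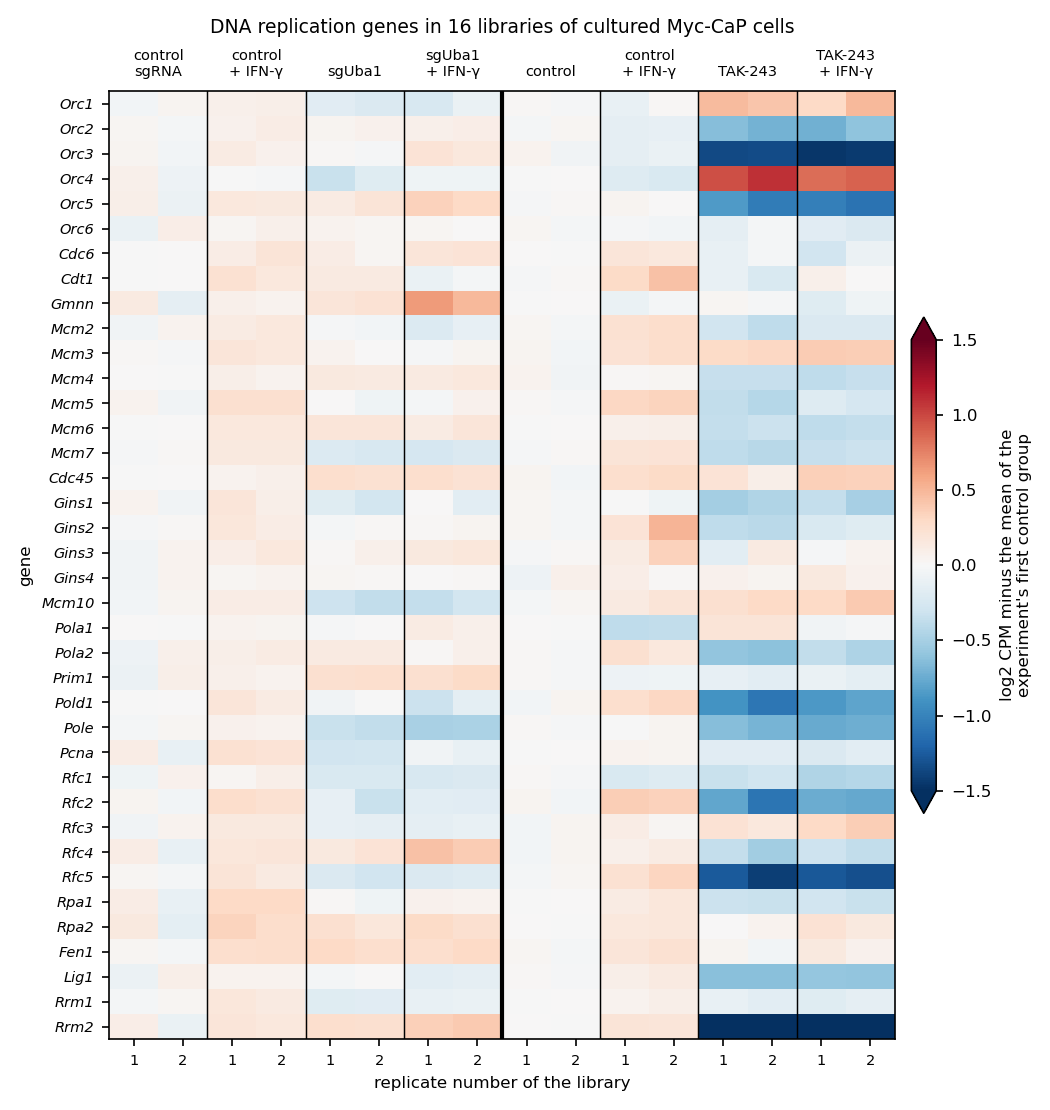
Heat map of the 38 members (rows, ordered by role) in the 16 cell libraries (columns), where colour is log2 CPM minus the mean of the untreated control libraries of the same experiment, on a scale cut at 1.5 in each direction. The TAK-243 columns hold both deep reductions (Rrm2, Orc3, Rfc5) and an increase (Orc4), while the sgUba1 columns stay paler.

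In tumors TAK-243 gave another picture: all 38 members lay below vehicle (37 on log2(TPM + 1)), against 47.6% of all genes, and none passed the test. The median log2FC was −0.70 against 0.01 over the 17299 genes tested, and the members ran from −1.38 (Rrm2) to −0.04 (Orc4). At an unadjusted p under 0.05, 32 of 38 members were lower and 0 higher, where 7.66% of all genes were lower and 7.30% higher. With edgeR 0 members had an adjusted p under 0.05 (0.145% of all genes did), the smallest being 0.0701. DESeq2 called 15 members, all lower, and 3.43% of all genes. limma called 0 members on log2(TPM + 1), with 33 at an unadjusted p under 0.05.

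Rrm2 ran from 128 to 240.4 CPM (median 188) in 6 vehicle tumors and stood at 47.8, 99.98, 78.7, 32.5 and 84.8 CPM in TAK-243 tumors 1 to 5. All TAK-243 tumors lay below all vehicle tumors, with a log2FC of −1.38 (SE 0.27, adjusted p = 0.0701). Without tumor 5 the adjusted p was 0.0399. Rpa1, the large subunit of the single-strand binding protein RPA, ran from 137 to 160.4 CPM (median 148) against 99.6, 131, 113, 91.2 and 115 CPM. These groups did not overlap either, with a log2FC of −0.44 (SE 0.09, adjusted p = 0.0877). Rrm1 ran from 120.5 to 174 CPM (median 140.0) against 68.5, 104, 101, 54.7 and 109.97 CPM. Its log2FC was −0.72 (SE 0.18, adjusted p = 0.124), again without overlap. Pole and Lig1 complete the 5 members whose groups did not overlap, where 1.15% of all genes were lower without overlap.

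The other members named throughout did overlap. Cdt1 ran from 37.5 to 72.9 CPM (median 48.7) in vehicle tumors, and stood at 17.7, 36.6, 42.5, 16.03 and 47.8 CPM with TAK-243. Tumors 1 and 4 were far below vehicle and tumors 3 and 5 inside its range, and the log2FC was −0.73 (SE 0.28, adjusted p = 0.265). Gmnn ran from 12.8 to 21.9 CPM (median 15.4) against 5.99, 12.3, 12.8, 5.70 and 13.3 CPM, a log2FC of −0.69 (SE 0.24, adjusted p = 0.233). Mcm2 ran from 81.1 to 120.5 CPM (median 92.5) against 50.0, 91.1, 72.4, 35.8 and 68.2 CPM, a log2FC of −0.59 (SE 0.20, adjusted p = 0.212). In both genes tumors 1 and 4 were again the lowest. Pcna ran from 71.6 to 123 CPM (median 90.5) against 43.9, 72.4, 74.0, 37.4 and 63.3 CPM, a log2FC of −0.73 (SE 0.20, adjusted p = 0.151). Gins4, a GINS subunit, had a log2FC of −0.43 (SE 0.11, adjusted p = 0.121). By role the medians were −1.05 for ribonucleotide reductase, −0.82 for Okazaki joining, −0.75 for the helicase genes, −0.71 for the polymerases, −0.64 for the clamp and its loaders, −0.58 for RPA and −0.33 for the origin loaders. Within the loaders the 6 ORC genes had a median of −0.18, with a range from −0.67 (Orc1) to −0.04 (Orc4).

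**Figure D3:**
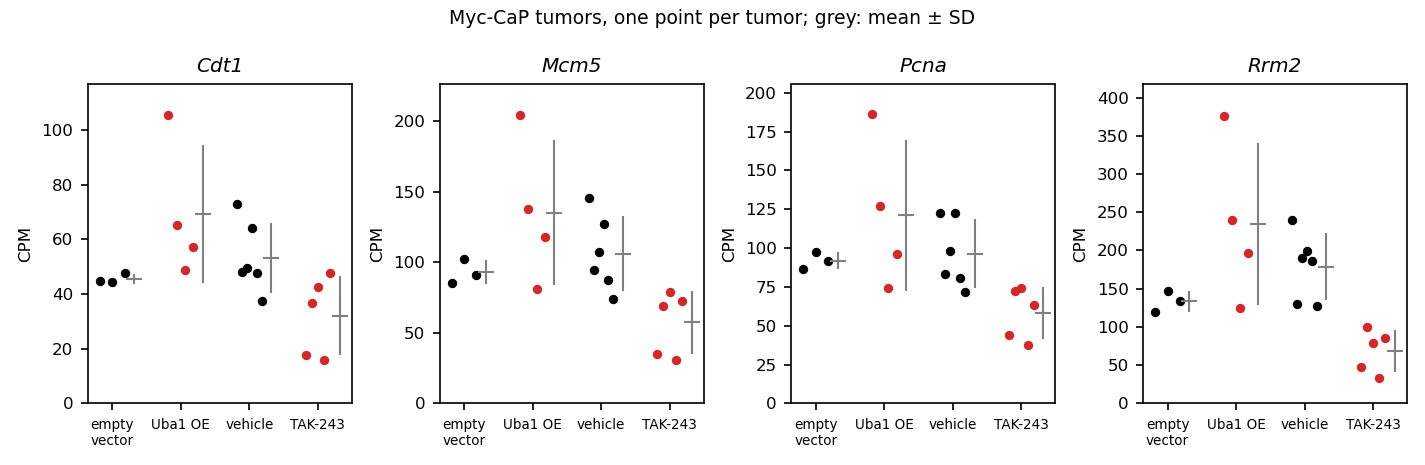
CPM (y axis, from 0) of Cdt1, Mcm5, Pcna and Rrm2 in Myc-CaP tumors with empty vector, OE, vehicle and TAK-243; each point is a tumor and grey marks are the mean ± SD. TAK-243 tumors 1 and 4 are the lowest points of their group in each gene, and OE tumor 1 is the highest of its group, at 376 CPM for Rrm2.

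How far the members lay below vehicle differed between the 5 TAK-243 tumors. Tumor 4 had all 38 members below every vehicle tumor and tumor 1 had 35, while tumors 2, 3 and 5 had 14, 12 and 21. The same counts per tumor were not made over all genes, so they have no background here. Without tumors 1 and 4, chosen for this after their values were seen, all 38 members were still below vehicle, with a median log2FC of −0.37, 18 at an unadjusted p under 0.05 and 0 past the test, and Rrm2 had a log2FC of −1.03 (adjusted p = 0.244). Of the other lists, 19 of 20 mitosis genes, 28 of 32 further replication genes, 6 of 13 E2F and pocket protein genes, 5 of 12 nucleotide supply genes and 0 of 11 p53 targets were lower at an unadjusted p under 0.05, none with an adjusted p under 0.05 by edgeR. The 20 mitosis genes summed to 1806 to 2843 CPM in vehicle tumors and to 999, 1291, 1589, 939 and 2014 CPM in TAK-243 tumors 1 to 5. The 14 myeloid markers, all detected, summed to 231 to 330.0 CPM with vehicle and to 499, 512, 386, 558 and 273 CPM with TAK-243, with all 14 above vehicle and 3 past the test, and 12 T and NK cell markers to 10.2 to 16.6 and 10.4 to 16.3 CPM. The 6 Myc-CaP line markers summed to 3101 to 3839 CPM with vehicle and 3444 to 4887 CPM with TAK-243. The part of these levels in the result was not tested, and in bulk tumors fewer cells of a type and less RNA per cell cannot be told apart.

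**Figure D4:**
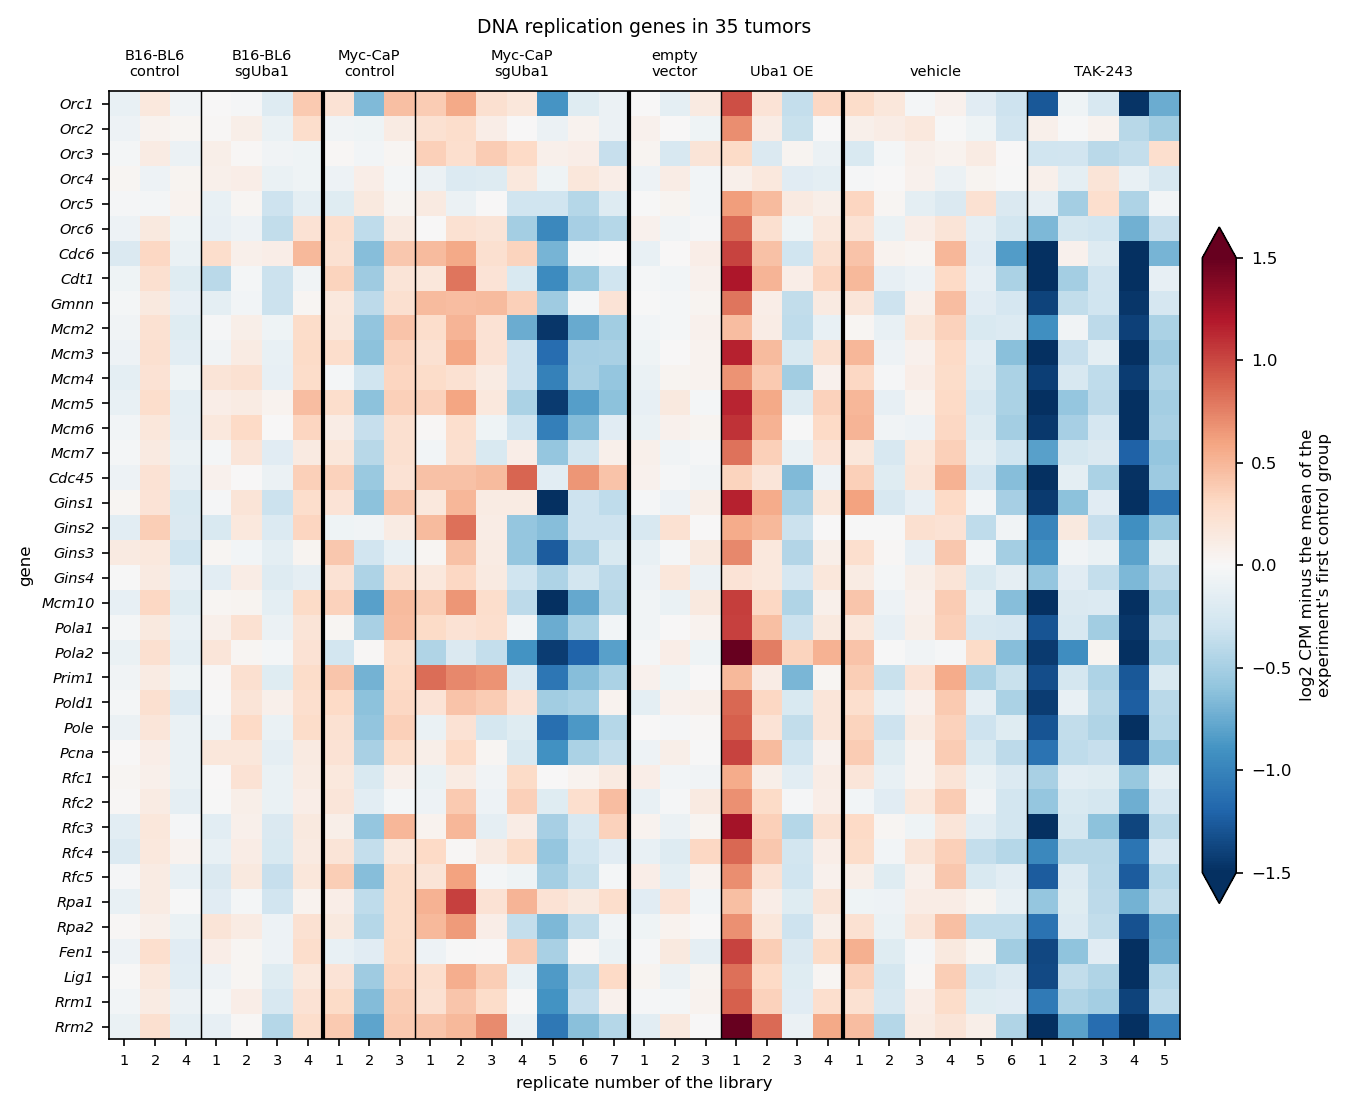
Heat map of the 38 members (rows, ordered by role) in the 35 tumors (columns), where colour is log2 CPM minus the mean of the control group of the same experiment, on a scale cut at 1.5 in each direction. The columns of TAK-243 tumors 1 and 4 are low over almost all members, OE tumor 1 is high and OE tumor 3 low, and the B16-BL6 columns are pale.

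Cells and tumors were exposed to TAK-243 at different doses, routes and times, so their values are set side by side only. Across the 38 genes the log2FC in tumors and in cells had a Pearson's r of 0.15 and a Spearman's rho of −0.09. The 2 comparisons share no library, and genes are not independent replicates. Rrm2 had the lowest log2FC in both, −1.38 in tumors and −1.93 in cells. Orc4, nearest to 0 in tumors at −0.04, was the largest increase in cells at 1.03. Orc3 and Rfc5, at −0.20 and −0.66 in tumors, were at −1.36 and −1.33 in cells. Fen1, at −0.86 in tumors, was at 0.00 in cells, and Gmnn, at −0.69 in tumors, was at 0.01.

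**Figure D5:**
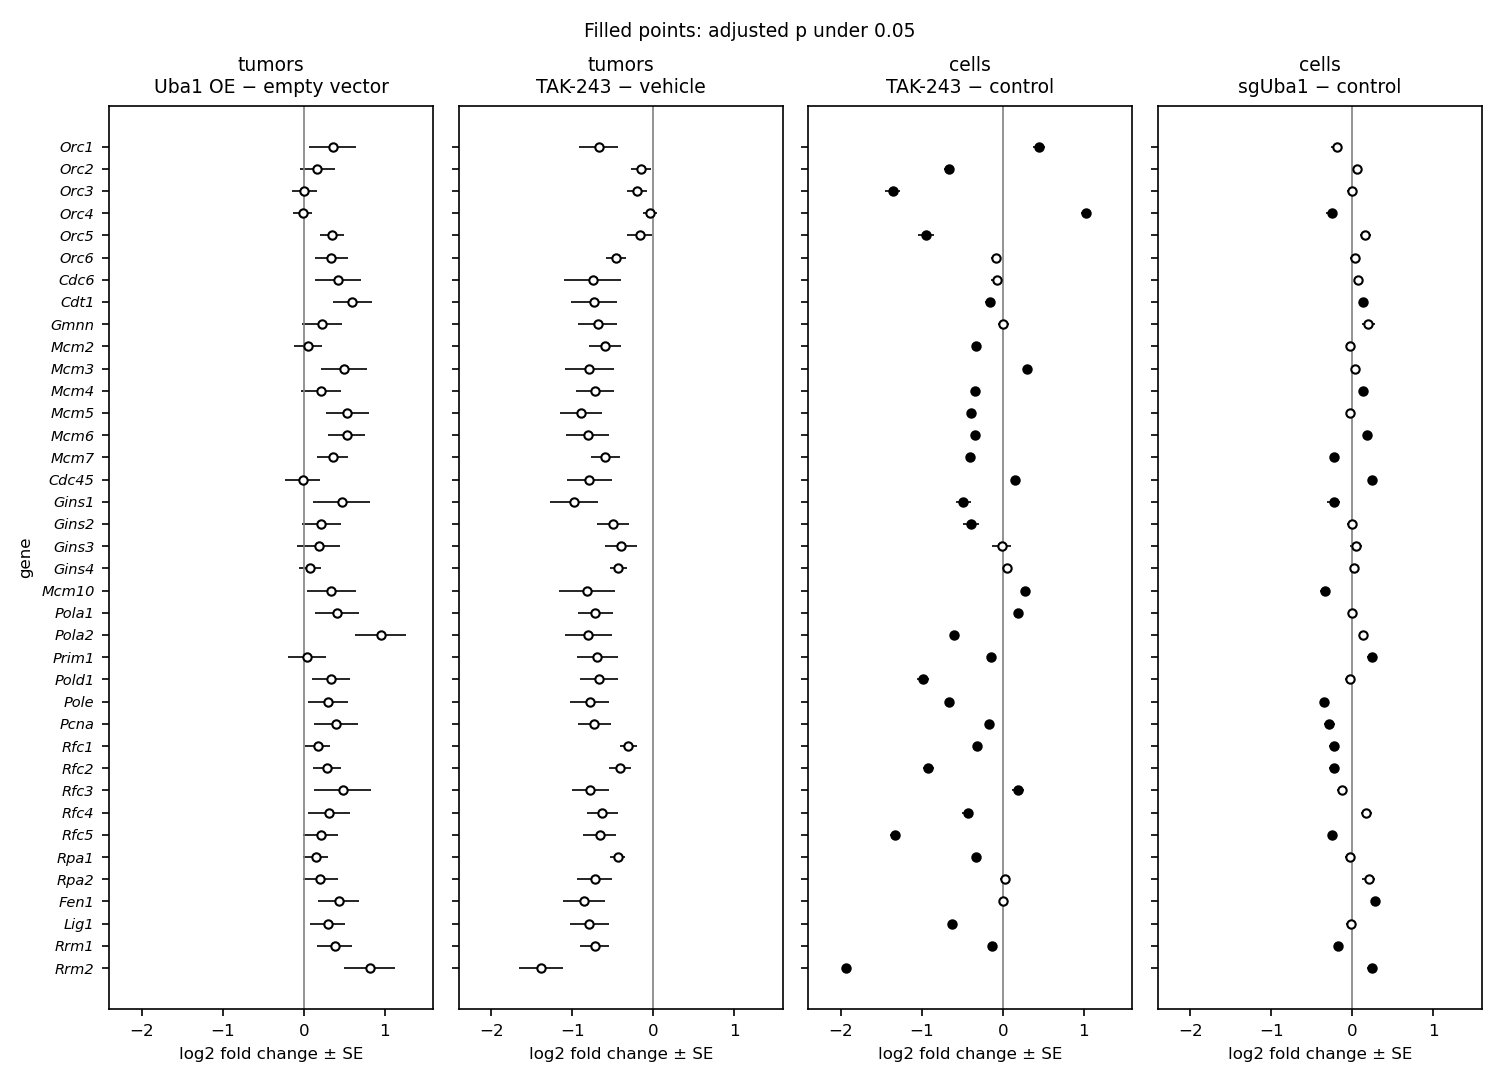
log2 fold change (x axis) of each of the 38 members (y axis, ordered by role) in 4 comparisons: OE tumors against EV, TAK-243 tumors against vehicle, TAK-243 cells against control, and sgUba1 cells against control; bars are standard errors and filled points have an adjusted p under 0.05. Every point of the TAK-243 tumors lies left of 0 with none filled, 36 of the OE points lie right of 0 with none filled, and the cells with TAK-243 have 31 filled points on both sides.

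In OE tumors 36 of 38 members lay above EV, against 50.4% of all genes, and none passed the test. The median log2FC was 0.32 against 0.00 over 14853 genes, with a range from −0.01 (Cdc45) to 0.95 (Pola2). By edgeR 0 members had an adjusted p under 0.05 (0.0269% of all genes did), and 5 were higher at an unadjusted p under 0.05, where 1488 of the 14853 genes were. DESeq2 and limma also called 0 members. Pola2, the regulatory subunit of polymerase α, stood at 51.7, 56.6 and 50.8 CPM with EV and at 176, 90.3, 66.8 and 76.1 CPM with OE. All OE tumors were above all EV tumors, with a log2FC of 0.95 (SE 0.32, adjusted p = 0.191). Cdt1 stood at 44.8, 44.3 and 47.7 CPM against 105.6, 65.2, 48.7 and 57.2 CPM, also without overlap, with a log2FC of 0.60 (SE 0.24, adjusted p = 0.251). Orc5 was the other member without overlap, where 10.7% of all genes were higher without overlap.

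The remaining named members overlapped with EV. Rrm2 stood at 119, 147 and 134 CPM with EV and at 376, 239.6, 125 and 197 CPM with OE. OE tumor 3 lay inside the EV range, and the log2FC was 0.81 (SE 0.32, adjusted p = 0.239). Mcm6, an MCM2-7 subunit, stood at 117, 131 and 129 CPM against 266, 181, 125 and 154 CPM, a log2FC of 0.53 (SE 0.23, adjusted p = 0.271). Pcna stood at 86.8, 97.5 and 91.4 CPM against 186, 127, 74.6 and 96.4 CPM, a log2FC of 0.40 (SE 0.27, adjusted p = 0.466). In both genes tumor 1 was the highest and tumor 3 the lowest of the OE group. Gmnn stood at 18.5, 18.1 and 19.0 CPM against 32.4, 19.9, 14.3 and 20.5 CPM, a log2FC of 0.23 (SE 0.25, adjusted p = 0.652). Mcm2 stood at 101, 102 and 109 CPM against 143, 112, 79.9 and 96.6 CPM, a log2FC of 0.05 (SE 0.18, adjusted p = 0.899) that was −0.04 on log2(TPM + 1).

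The 4 OE tumors differed among themselves. Tumor 1 had 37 members above every EV tumor, tumor 2 had 34, and tumor 4 had 23, while tumor 3 had 31 members below every EV tumor. For these counts per tumor the share over all genes was not computed. Without tumor 1 the median log2FC was 0.08, Gmnn (−0.03) and Mcm2 (−0.11) were below 0, and Pola2 passed the test (0.55, adjusted p = 0.0406). Without tumor 3 the median was 0.45, with 37 of 38 members above EV, 20 of them at an unadjusted p under 0.05 and 0 past the test. Their Uba1 levels, 731, 631, 722 and 747 CPM, did not follow this order. The 20 mitosis genes summed to 1875 to 2166 CPM with EV and to 4301, 2915, 2160.0 and 2481 CPM in OE tumors 1 to 4, with all 20 above EV and 10 at an unadjusted p under 0.05. Of 32 further replication genes 29 were above EV. The 14 myeloid markers summed to 399 to 495 CPM with EV and to 153, 319, 529 and 329 CPM with OE, 12 T and NK cell markers to 18.5 to 24.5 and 6.54 to 12.4 CPM, and 6 Myc-CaP line markers to 3835 to 4008 and 2328 to 3476 CPM. The 10 skeletal muscle markers summed to 36.2 to 44.2 CPM with EV and to 610.4, 191, 49.6 and 37.3 CPM in OE tumors 1 to 4, with 2 of the 10 at 0 in every EV tumor, all 6 that were tested above EV and 3 of them at an unadjusted p under 0.05. The part of these levels in the result was not tested. Across the 38 genes the log2FC of OE and of TAK-243 tumors, which share no library, had a Pearson's r of −0.63 and a Spearman's rho of −0.67, as a description over genes that vary together between tumors.

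In sgUba1 tumors no member passed the test in either model. In B16-BL6 tumors 25 of 38 members were above and 13 below controls, against 52.6% and 47.4% of all genes, with a median log2FC of 0.04 (0.01 over 17539 genes) and a range from −0.21 (Cdt1) to 0.22 (Cdc6). edgeR called 0 members (0.724% of all genes were called) with 0 at an unadjusted p under 0.05, where 8.20% of all genes were higher and 8.11% lower, and DESeq2 and limma called 0. No member separated the groups without overlap, where 7.29% of all genes were higher and 8.01% lower in that way. Cdt1 stood at 45.9, 56.8 and 42.5 CPM in controls and at 36.3, 46.9, 38.4 and 46.3 CPM in sgUba1 tumors. The groups overlapped, with a log2FC of −0.21 (SE 0.12, adjusted p = 0.423). Rrm2 stood at 237, 299.6 and 229.6 CPM against 233, 258, 189 and 304 CPM, a log2FC of −0.06 (SE 0.15, adjusted p = 0.883) that was 0.01 on log2(TPM + 1). Pcna (0.09, SE 0.09, adjusted p = 0.647), Mcm2 (0.06, SE 0.11, adjusted p = 0.811) and Gmnn (−0.12, SE 0.11, adjusted p = 0.62) did not pass either.

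In Myc-CaP tumors 14 members were above and 24 below controls, against 50.1% and 49.9% of all genes, with a median log2FC of −0.05 (0.00 over 16202 genes). edgeR called 0 members (3.04% of all genes were called), with 1 lower at an unadjusted p under 0.05, where 10.9% of all genes were, and DESeq2 and limma called 0. That member was Pola2, at 41.3, 50.6 and 60.5 CPM in controls and from 18.6 to 43.2 CPM (median 28.4) in 7 sgUba1 tumors. The groups overlapped, with a log2FC of −0.73 (SE 0.25, adjusted p = 0.117). Cdt1 stood at 39.4, 21.5 and 35.6 CPM in controls and from 16.1 to 54.5 CPM (median 26.6) in sgUba1 tumors, a log2FC of −0.07 (SE 0.34, adjusted p = 0.922). Rrm2 stood at 164, 71.7 and 163 CPM against 59.1 to 203 CPM (median 116), a log2FC of −0.06 (SE 0.39, adjusted p = 0.94). The spread within each group was wider than the difference between them. Pcna (−0.21, SE 0.24, adjusted p = 0.633), Mcm2 (−0.28, SE 0.39, adjusted p = 0.705) and Gmnn (0.22, SE 0.23, adjusted p = 0.609) did not pass.

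The sgUba1 tumors with low Uba1 (1 to 3) and those with Uba1 above the controls (4 to 7) are given apart here, without a test between them. Tumors 1, 2 and 3 had 11, 27 and 7 members above every control, while tumors 4 to 7 had 9, 1, 4 and 2 above and 7, 29, 11 and 7 below every control. No share over all genes was computed for these counts, and with few controls an unchanged gene can also lie beyond all of them. Without tumors 4 to 7 the median log2FC was 0.20, 32 of 38 members were above controls, and Cdt1 (0.37), Pcna (0.10), Mcm2 (0.27) and Rrm2 (0.44) turned positive, with 0 members past the test and 3 at an unadjusted p under 0.05. Without tumor 5 alone the median was 0.03, with 22 members above and 16 below controls and 0 past the test. Control tumor 2 had 35 members below the control mean, against 7 and 3 in controls 1 and 3. The 20 mitosis genes summed to 2410.2, 1008 and 2627 CPM in controls 1 to 3, and from 796 to 2358 CPM in sgUba1 tumors. The 14 myeloid markers summed to 285, 557 and 325 CPM in controls and to 495 to 838 CPM in sgUba1 tumors, and 4 of the 13 tested rose. The T and NK cell markers summed to 10.9 to 14.1 CPM in controls and to 14.7 to 32.7 CPM in sgUba1 tumors, above every control in all 7. Endothelial markers summed to 153 to 189 CPM in controls, to 120 to 157 CPM in sgUba1 tumors 1 to 3 and to 225 to 272 CPM in tumors 4 to 7. Of the 9 endothelial markers tested over all 7 sgUba1 tumors, 2 were above and 7 below controls, with a median log2FC of −0.28. The part of these levels in the result was not tested. The sgUba1 effect in B16-BL6 minus that in Myc-CaP passed for 0 members by edgeR (1.52% of all genes passed), with 1 higher at an unadjusted p under 0.05 (Pola2, 0.82; 8.33% of all genes), and for 0 by DESeq2 and limma.

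In cells sgUba1 moved members both ways by small amounts. Of 38 members 7 rose and 10 fell, against 16.2% and 13.6% of all 15530 genes, and the median log2FC was −0.00, with 33 members within 0.25 of 0. Pole stood at 251 and 264 CPM in sgNC cells and at 205 and 199.8 CPM in sgUba1 cells. The groups did not overlap and Pole fell by 0.35 (SE 0.05, adjusted p = 0.000231), the largest decrease of any member. Fen1 stood at 183 and 175 CPM against 219 and 213 CPM, and rose by 0.27 (SE 0.05, adjusted p = 0.00122), the largest increase. Mcm10 fell by 0.34 (adjusted p = 0.000532), Pcna by 0.28 (0.00737), Orc4 by 0.26 (0.012) and Rfc5 by 0.25 (0.00216), and Cdc45 rose by 0.24 (0.00202) and Prim1, the primase subunit, by 0.24 (0.00809), the values in parentheses being adjusted p. Rrm2 stood at 658 and 576 CPM against 732 and 726 CPM. Both sgUba1 libraries were higher, and Rrm2 rose by 0.24 (SE 0.06, adjusted p = 0.00987). Cdt1 rose by 0.14 (SE 0.05, adjusted p = 0.0428), a call that was lost in 7 of 8 fits with 1 library left out (highest adjusted p = 0.307) and by DESeq2 (adjusted p = 0.162). Gmnn (0.20, adjusted p = 0.0927) and Mcm2 (−0.03, adjusted p = 0.719) did not pass. The count of 17 called members was 8 without sgUba1 library 1 and 7 without sgUba1 library 2.

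By complex, 4 of the 6 clamp and loader genes fell (Pcna, Rfc1, Rfc2, Rfc5) and 0 rose, while the MCM2-7 ring split into Mcm4 and Mcm6, which rose by 0.14 and 0.18, and Mcm7, which fell by 0.22. Among the other lists, 13 of 20 mitosis genes fell and 1 rose (median −0.35), led by Ube2c, which fell by 0.65 (adjusted p = 1.38e-05). Of 32 further replication genes 5 rose and 4 fell, of 12 nucleotide supply genes 4 rose and 3 fell, of 12 E2F and pocket protein genes 4 rose and 2 fell, and of 11 p53 targets 3 rose and 2 fell.

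With IFN-γ in both arms, 18 members fell and 5 rose in sgUba1 cells, against 22.4% and 17.0% of all genes, and the median log2FC was −0.09. The count of 23 called was 14 without sgNC IFN-γ library 1, without sgNC IFN-γ library 2 or without sgUba1 IFN-γ library 1. Gmnn stood at 38.1 and 37.5 CPM in sgNC cells and at 56.1 and 50.6 CPM in sgUba1 cells. It did not overlap, and rose by 0.50 (SE 0.08, adjusted p = 0.000481), the largest increase of any member. Cdt1 stood at 100.5 and 95.8 CPM against 79.9 and 83.9 CPM, and fell by 0.26 (SE 0.05, adjusted p = 0.000853). Cdt1 and Gmnn moved in opposite directions here, and the change of the sgUba1 effect with IFN-γ passed for Cdt1 and not for Gmnn (0.30, adjusted p = 0.157). Pole fell by 0.54 (6.78e-06), Mcm10 by 0.43 (5.7e-05), Rfc2 by 0.41 (0.000427), Mcm7 by 0.38 (4.65e-05), Pold1 by 0.38 (0.000377), Rfc5 by 0.37 (8.47e-05), Pcna by 0.30 (0.00342) and Mcm2 by 0.30 (0.000761), and Rrm2 rose by 0.21 (0.0163), the values in parentheses being adjusted p.

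The effects of TAK-243 and sgUba1 in cells were compared directly in a fit of all 16 libraries. The TAK-243 effect was lower than the sgUba1 effect for 21 members and higher for 6, against 30.2% and 25.2% of all genes. Rrm2 differed most, by −2.19 (adjusted p = 5.37e-15), followed by Orc3 (−1.37, 2.53e-10), Orc4 (1.26, 3.58e-10), Orc5 (−1.13, 5.39e-08), Rfc5 (−1.10, 6.83e-10), Pold1 (−0.97, 5.12e-08), Pola2 (−0.75, 3.58e-08) and Orc2 (−0.74, 2.83e-08), each with its adjusted p. Calls went in opposite directions for 7 members: Cdt1, Mcm4, Mcm6, Prim1 and Rrm2 rose with sgUba1 and fell with TAK-243, and Orc4 and Mcm10 did the reverse. With 1 library left out the sgUba1 call was lost in 7 of 8 fits for Cdt1, 2 of 8 for Rrm2 and 1 of 8 for Orc4, and in 0 of 8 for Mcm10, and these fits were not read for Mcm4, Mcm6 and Prim1. Both fell for 8 members, Mcm7, Gins1, Pole, Pcna, Rfc1, Rfc2, Rfc5 and Rrm1. These joint counts were not made over all genes, so how many such calls other genes would give is not known here. Across the 38 genes the log2FC of sgUba1 and of TAK-243 in cells had a Pearson's r of −0.09 and a Spearman's rho of 0.04. The experiments differ in controls and in how the cells were made, which cannot be told apart from the agent.

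IFN-γ alone, in sgNC cells, left 37 of 38 members above PBS, against 58.0% of all genes, with 31 higher without overlap (32.8% of all genes) and a median log2FC of 0.14 against 0.04 over all genes. Of these 4 rose and 0 fell, against 3.03% and 0.856% of all genes: Rpa1 by 0.29 (SE 0.07, adjusted p = 0.0388), Fen1 by 0.26 (SE 0.05, adjusted p = 0.0227), Mcm5 by 0.24 (SE 0.05, adjusted p = 0.0385) and Cdt1 by 0.20 (SE 0.05, adjusted p = 0.0439). Cdt1 stood at 85.0 and 86.1 CPM with PBS and at 100.5 and 95.8 CPM with IFN-γ, and Fen1 at 183 and 175 against 212 and 215 CPM. Both genes separated the groups. Pcna (0.21), Mcm2 (0.14), Rrm2 (0.17) and Gmnn (0.06) did not pass. The count of 4 was 15 without sgNC PBS library 1, 11 without sgNC PBS library 2 and 0 without any 1 of the other 6 libraries of the experiment. RLE scaling called 1 member, and changed the share of calls that were higher over all genes from 77.9% to 65.8%. By limma on log2(TPM + 1) 0 members were called, 4 were higher and 1 lower at an unadjusted p under 0.05, and the median was 0.040.

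In the unmodified cells of the TAK-243 experiment IFN-γ alone raised 18 members and lowered 3, against 19.6% and 9.39% of all genes, with a median of 0.10, and with RLE scaling 18 rose and 3 fell, and by DESeq2 15 and 2. By limma on log2(TPM + 1) 0 rose, 13 fell and the median of the members was −0.14, where the median of all genes was −0.14 against 0.04 by edgeR. Cdt1 stood at 99.4 and 102 CPM without and at 123 and 137 CPM with IFN-γ, and rose by 0.37 (SE 0.05, adjusted p = 9.06e-07). Mcm5 stood at 328 and 321 against 403 and 407 CPM, and rose by 0.32 (SE 0.03, adjusted p = 3.58e-09). Both separated the groups. Gins2 rose by 0.37 (0.00339), Rfc2 by 0.35 (8.19e-05), Pold1 by 0.29 (0.00141), Rfc5 by 0.27 (0.000267), Cdc45 by 0.27 (3e-04) and Mcm2 by 0.24 (1.2e-06), the values in parentheses being adjusted p. Pola1 fell by 0.38 (SE 0.04, adjusted p = 8.05e-09), from 142 and 142 to 109 and 109.8 CPM, and Orc4 and Rfc1 fell by 0.21 each. Rrm2 rose by 0.19 (adjusted p = 5.06e-06), but was −0.03 on log2(TPM + 1), and Pcna (0.05) was −0.18 there. The 4 members called in sgNC cells were also called here, in the same direction, as all 4 of that list and 4 of 18 here. This joint count was not made over all genes, so it has no background here.

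The IFN-γ effect differed by sgUba1 for 2 members, both lower in sgUba1 cells, against 4.64% of all genes: Cdt1 by −0.40 (SE 0.06, adjusted p = 0.0159) and Pold1 by −0.35 (SE 0.08, adjusted p = 0.0421). Cdt1 was at 94.0 and 94.2 CPM in sgUba1 cells and at 79.9 and 83.9 CPM with IFN-γ added, the reverse of its direction in sgNC cells. The count of 2 was 9 and 12 without sgNC PBS library 1 or 2 and 0 without any 1 of the other 6 libraries. The IFN-γ effect differed by TAK-243 for 2 members, against 2.38% of all genes: Rrm2 by −0.23 (SE 0.04, adjusted p = 0.00252) and Mcm3 by −0.17 (SE 0.05, adjusted p = 0.0315). Rrm2 was nearly level between TAK-243 alone (154 and 157 CPM) and with IFN-γ (152 and 149 CPM), while it was higher with IFN-γ in cells without TAK-243. That count was 0 without TAK-243 IFN-γ library 1 or 2, 1 without control library 2 or without any 1 of the TAK-243 or control IFN-γ libraries, and 2 without control library 1, and the Mcm3 difference was 0.01 on log2(TPM + 1). By limma on log2(TPM + 1) 0 members were called for either difference. There 9 members were higher and 0 lower at an unadjusted p under 0.05 for TAK-243, against 1 higher and 11 lower by edgeR.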

How the data were processed

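RNA from 51 libraries was quantified by the authors with kallisto against mm10, as the submitters' processing notes name them, with versions not given in the sources used here. The deposited tables hold expected counts per gene and TPM, which the authors scaled for library size and gene length. The labels name poly-A RNA and the study's methods a ribosomal depletion kit. Expected counts were rounded, filtered with filterByExpr, scaled by TMM and tested with edgeR 4.0.16 in R 4.3.3 (quasi-likelihood test, Benjamini-Hochberg adjustment over all genes tested, two-sided, threshold 0.05). The 8 libraries of each cell experiment were fitted together. DESeq2 1.42.0, RLE scaling, no filter, limma 3.58.1 on log2(TPM + 1) and log2(TPM + 0.1), a replicate block and leaving out libraries served as alternatives, and scripts were tested on simulated data. Shares over all genes come from the main edgeR fit unless another method is named. Most counts from the alternatives are given without such a share.

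Groups came from the labels. Cdt1, Gmnn, Pcna, Mcm2 and Rrm2 were named in each comparison, with up to 8 called members of largest change, or up to 4 of smallest p where none passed; other members are named to describe complexes and were chosen after their values were seen. The members and lists were chosen with earlier results of these data known. No replicate pair of 75 held identical values. Totals ran from 8652097 to 38032395 counts, and members held at least 23 counts in every library. Promoter sequences are from RefSeq on GRCm38.p6. All 38 members matched GENCODE M21 identifiers.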

Additional observations from a re-analysis of the deposited data

Results flagged for a closer look

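Of 190 groups of member values tested for a sample far from the others, 6 had one, where chance gives about 1 in 20. Pcna was 171 CPM in B16-BL6 sgUba1 tumor 3 (others 205 to 211). In Myc-CaP sgUba1 tumors Orc3 was 19.7 CPM in tumor 7 (others 26.4 to 32.7), Cdc45 was 18.9 CPM in tumor 5 (others 28.5 to 38.7) and Rpa1 was 229 CPM in tumor 2 (others 125 to 162). Gins4 was 31.5 CPM in OE tumor 3 (others 41.8 to 43.3), and Orc3 was 34.6 CPM in TAK-243 tumor 5 (others 21.9 to 23.7).

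The effect of IFN-γ in cells differed with sgUba1 for Cdt1 (−0.40, edgeR adjusted p = 0.0159) and Pold1 (−0.35, adjusted p = 0.0421), and with TAK-243 for Mcm3 (−0.17, adjusted p = 0.0315) and Rrm2 (−0.23, adjusted p = 0.00252), all on the log2 scale. Each is 2 of 38 members, 5.26%, against 4.64% of all genes for sgUba1 and 2.38% for TAK-243. These calls depended on single libraries and were not made by limma on log2(TPM + 1), as described above.

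The TAK-243 effect minus the sgUba1 effect in cells passed the edgeR test for 27 of 38 members, where 55.3% of all 15708 genes passed. Of the members that passed, Pola1 had the largest adjusted p, 0.0106. Among the loaders the log2 differences were 0.62 for Orc1, −0.74 for Orc2, −1.37 for Orc3, 1.26 for Orc4, −1.13 for Orc5 and −0.32 for Cdt1. Among the helicase genes they were −0.32 for Mcm2, 0.25 for Mcm3, −0.51 for Mcm4, −0.39 for Mcm5, −0.54 for Mcm6, −0.20 for Mcm7, −0.41 for Gins2 and 0.59 for Mcm10. Polymerase genes differed by 0.18 for Pola1, −0.75 for Pola2, −0.40 for Prim1, −0.97 for Pold1 and −0.34 for Pole. The clamp loader genes differed by −0.71 for Rfc2, 0.30 for Rfc3, −0.63 for Rfc4 and −1.10 for Rfc5. The rest were −0.32 for Rpa1, −0.29 for Fen1, −0.63 for Lig1 and −2.19 for Rrm2.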

How the results depend on the processing

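In TAK-243 tumors DESeq2 called 15 members where edgeR called 0. On the TPM scales, with both pseudocounts, sgUba1 in cells had 9 (TPM + 1) and 8 (TPM + 0.1) called members and medians of 0.040 and 0.041, sgUba1 with IFN-γ a median of −0.12, TAK-243 with IFN-γ a median of −0.21, and IFN-γ in unmodified cells 13 called members and medians of −0.14 and −0.15. There IFN-γ in sgNC cells had 0 called members by limma (4 higher and 1 lower at an unadjusted p under 0.05) and medians of 0.040 and 0.041. The differences of the IFN-γ effect had 0 called by limma there, with 2 higher and 9 lower for sgUba1 and 9 higher and 0 lower for TAK-243 at an unadjusted p under 0.05. Single genes changed sign on these scales: Rrm2 in B16-BL6 tumors (0.0082 and 0.0081), Mcm2 with OE (−0.040 and −0.041), Mcm2 in sgUba1 cells (0.0015), Gmnn with IFN-γ in sgNC cells (−0.018), Gmnn with TAK-243 (−0.033 and −0.034) and with TAK-243 and IFN-γ (0.11), Pcna (−0.18) and Rrm2 (−0.027) with IFN-γ in unmodified cells, and the Mcm3 difference (0.0054). DESeq2 and RLE scaling gave medians of −0.073 for sgUba1 with IFN-γ, 0.12 for IFN-γ in sgNC cells and −0.35 for TAK-243 with IFN-γ, and 1 called member for the IFN-γ difference by TAK-243. RLE called 1 member for IFN-γ in sgNC cells and 1 for its difference by sgUba1. Without the filter these counts were 9 and 4, the medians with TAK-243 were −0.34 and, with IFN-γ, −0.39, and Gmnn with TAK-243 was −0.012. Without sgUba1 tumors 4 to 7 the log2 fold changes in Myc-CaP tumors were 0.37 for Cdt1, 0.10 for Pcna, 0.27 for Mcm2 and 0.44 for Rrm2. The cause of these shifts was not tested.

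Leaving out 1 library at a time moved the count of called members from 0 to 1 for OE and for TAK-243 tumors, 7 to 21 for sgUba1 in cells, 14 to 24 for sgUba1 with IFN-γ, 0 to 15 for IFN-γ in sgNC cells, 0 to 12 for its difference by sgUba1 and 0 to 2 for that by TAK-243. Medians ran from −0.025 to 0.015 for sgUba1 in cells, −0.11 to −0.028 for sgUba1 with IFN-γ, 0.10 to 0.15 for IFN-γ in sgNC cells, −0.38 to −0.30 for TAK-243, −0.39 to −0.37 for TAK-243 with IFN-γ and 0.072 to 0.14 for IFN-γ in unmodified cells. Genes that changed sign were Mcm2 (−0.022 to 0.19) and Rrm2 (−0.18 to 0.074) in B16-BL6 tumors, Cdt1 (−0.30 to 0.095) and Rrm2 (−0.37 to 0.11) in Myc-CaP sgUba1 tumors, Gmnn (−0.032 to 0.37) and Mcm2 (−0.11 to 0.16) with OE, Mcm2 in sgUba1 cells (−0.080 to 0.022), Gmnn with IFN-γ in sgNC cells (−0.063 to 0.20) and Gmnn with TAK-243 in cells (−0.080 to 0.0080). Of the values of named genes, 845 kept their direction and side of the threshold with 1 library left out and 557 in the other settings, while 24 and 28 changed sign, 62 and 50 lost the threshold and 6 and 10 gained it.

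Replicate numbers did not pair the samples: over 38 pairs with the same number the correlation of deviations ran from −0.18 to 0.31. With the replicate block 4 members were called for the IFN-γ difference by TAK-243, Rrm2 was 0.052 in B16-BL6 tumors, and in Myc-CaP sgUba1 tumors Cdt1 was 0.38, Pcna 0.14, Mcm2 0.32 and Rrm2 0.53.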
